A study of Rattus norvegicus with 4 samples.

Results

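The 47 microRNA probe codes described here gave signal above background on both arrays from Wistar rats and on neither array from Goto-Kakizaki (GK) rats. They are 47 of the 406 codes beginning with M, which are taken as the microRNA probes of a single-colour array. Members were chosen by their signal-to-noise score, the foreground mean minus the local background mean over the background SD, as deposited for each spot. Detection of a code on an array meant that 2 or 3 of its 3 spots scored above 2. Because this score on the same 4 arrays chose the codes, the difference between strains is described below and not tested.

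The arrays compared male GK rats, labelled diabetic, with normal male Wistar rats, with 2 arrays per strain. GK rats descend from Wistar rats bred for poor glucose tolerance and serve as a model of type 2 diabetes, and the labels record no transgene and no treatment. All animals were male and ate standard chow freely over 14 weeks; the labels give no age at death. The dye was Cy5, brought in by a primer during PCR. Neither a tissue nor the number of animals behind an array is named in the labels, so no tissue could be checked against its markers. The replicate numbers may stand for separate small RNA libraries or for repeat hybridizations of one library, and the spread between arrays may thus be technical.

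MicroRNAs are short RNAs, cut from hairpin precursors, that guide Argonaute proteins to partly complementary messenger RNAs and lower the output of those messages. Much of the pairing rests on a few bases near the 5′ end, the seed, so microRNAs with the same seed share many targets. In animals with disturbed glucose control, microRNAs have been studied in islets, liver, muscle and fat, where several affect insulin release or the response to insulin. An array gives a relative signal for a microRNA over the whole extract, so fewer cells that make it and less of it per cell cannot be told apart. No file links a code to a named microRNA. The codes are therefore described by their signal, and no mature sequence, seed family or function is given for them.

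Signal was lower on the GK arrays over the whole series, which sets what the 47 codes can show. Each GK array detected fewer of the 406 M codes, 72 for replicate 1 and 67 for replicate 2, than either Wistar array, with 125 and 161. In all, 118 codes were detected on both Wistar arrays, of which 57 were detected on all 4 arrays and 47 on no GK array. The reverse pattern, both GK arrays and no Wistar array, was found for 0 codes. Before any scaling, 281 of the 406 M codes and 42 of the 57 codes detected everywhere had a lower mean in GK rats. The median code detected everywhere was 1.59-fold lower. The 4 P codes detected on every array, a separate class whose target the files do not state, were a median of 5.38-fold lower. The local background was least variable on GK replicate 1, while the median background SD was 291 on GK replicate 2, 265 on Wistar replicate 1 and 271 on Wistar replicate 2.

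On the Wistar arrays the 47 codes scored above 2 at nearly every spot, where the rule required 2 of 3 spots. Their background-subtracted intensity, averaged over the 3 spots, ran from 576 to 5293 on Wistar replicate 1, with a median of 1174. On Wistar replicate 2 it ran from 728 to 7765, with a median of 1580. All 3 spots passed on both Wistar arrays for 42 of the 47 codes, and 277 of the 282 Wistar spots passed in all. The share of a spot's pixels brighter than the local background plus 2 SD had a median over codes of 60.7% and 69.0% on the Wistar arrays. None of the 47 codes held a saturated pixel on any array (0 codes), whereas 16 of the 57 codes detected everywhere did, so no Wistar value is capped by the scanner.

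On the GK arrays the same codes lay close to background. Their intensity ran from 29.3 to 244 on GK replicate 1, with a median of 122. On GK replicate 2 it ran from 26.3 to 554, with a median of 189. The highest GK value of these codes, 554, was below the lowest Wistar value, 576. The codes were chosen for low scores in GK and high ones in Wistar rats, so nothing is read from this gap. The median share of bright pixels was 18.3% on GK replicate 1 and 16% on GK replicate 2. The rule allowed a code at most 1 spot above 2 on each GK array. Of 282 GK spots, 6 passed the score of 2, each in a different code. These codes were M84, M94, M130, M330 and M352 on GK replicate 1 and M13 on GK replicate 2.

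**Figure D1:**
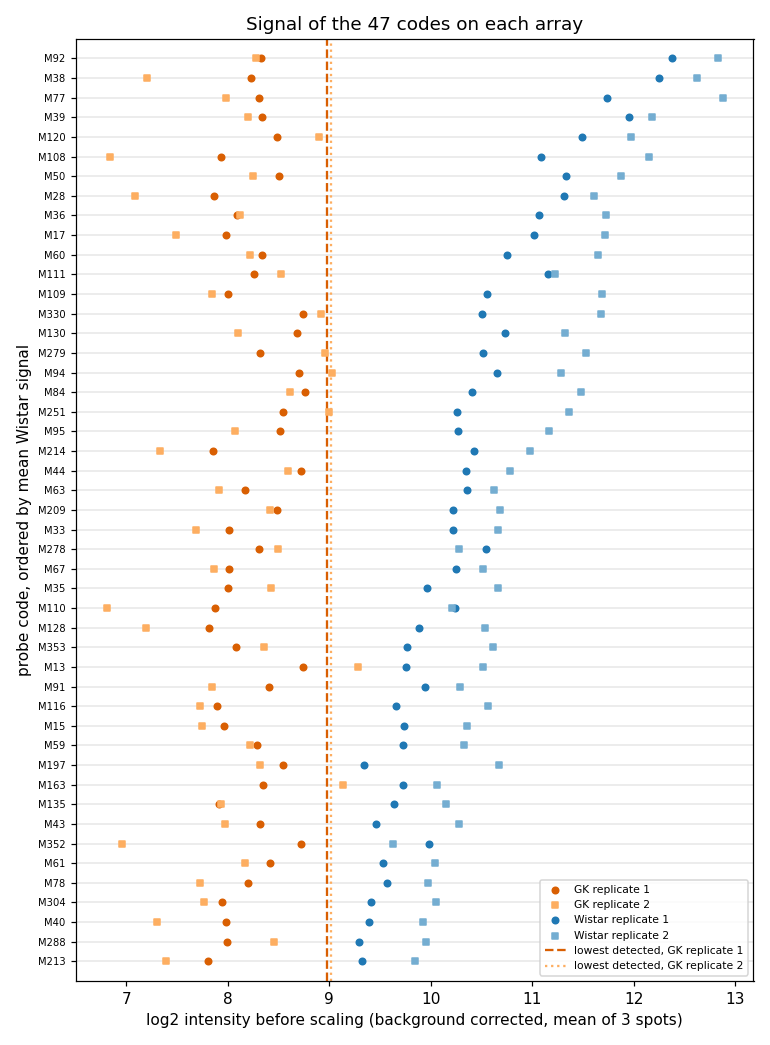
Log2 intensity of each of the 47 codes on the 4 arrays before scaling between arrays (x axis, normexp background correction with an offset of 50, mean of 3 spots), with codes ordered by mean Wistar signal (y axis). Circles are replicate 1, squares replicate 2, and the vertical lines mark the dimmest detected M code on each GK array, at 8.97 and 9.02. Both Wistar points lie to the right of both GK points for all 47 codes.

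Near background, the 47 codes had a higher median score than codes that were never detected. The score of the middle spot had a median of 0.73 and 0.55 on GK replicates 1 and 2. Over the 237 M codes detected on no array, it was 0.20 and 0.30. On GK replicate 1, 45 of the 47 codes exceeded that 237-code median, on GK replicate 2 it was 38, and on both arrays 37. The 95th percentile of the undetected codes, 0.80 on GK replicate 1 and 0.84 on GK replicate 2, was exceeded by 22 and 10 codes. Both sets are capped at a score of 2 in GK by how they were formed, but the 237 codes are capped on the Wistar arrays too, so these values carry no test.

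**Figure D2:**
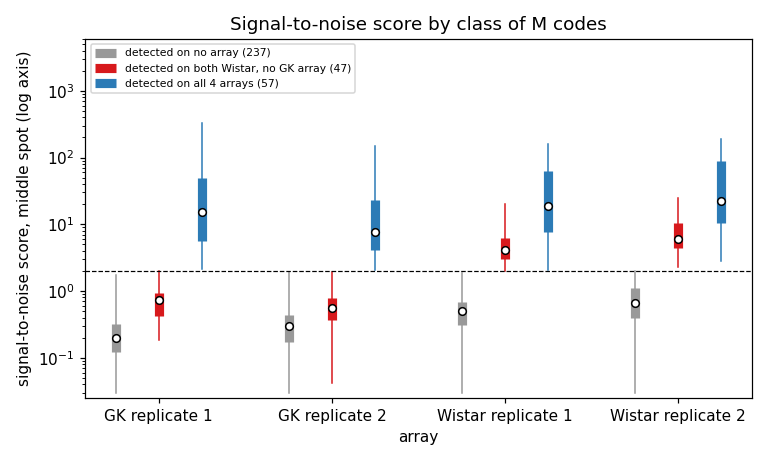
Signal-to-noise score of the middle spot (y axis, log scale) on each array (x axis) for M codes detected on no array, on the Wistar pair alone, and on all 4 arrays. Circles are medians over codes, thick bars the middle 50% of codes, thin lines the full range, with values under 0.03 drawn at 0.03, and the dashed line the score of 2. The 47 codes lie above the line on the Wistar arrays and under it on the GK arrays because the line chose them. Their medians are 0.73 and 0.55 in GK and 4.13 and 6.06 in Wistar rats.

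On the Wistar arrays, the 47 codes gave middle to low signal. Probes differ in affinity and labelling, so the signals of different codes do not rank the amounts of their microRNAs. After quantile normalization between arrays, the median code had a mean Wistar log2 signal of 9.59, against 12.03 for the 57 codes detected everywhere. The range was 8.93 to 12.04, against 8.81 to 15.61. Ranked by signal among the 118 codes detected on both Wistar arrays, the 47 codes had a median rank of 86 and the 57 codes a median rank of 30. The first of the 47 stood at rank 29. The brighter 59 of the 118 codes held 10 of them, and the dimmer 59 held 37. A dim code falls under the detection limit after a smaller loss than a bright one, so this placing partly follows from the rule.

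The Wistar levels of the 47 codes were alike on the 2 arrays. After quantile normalization the median absolute difference between the Wistar arrays was 0.17 on the log2 scale, and 31 of the 47 codes differed by less than 0.25. For the codes detected everywhere the median was 0.19. The order of the 47 codes was shared between the Wistar arrays (Spearman's rho = 0.89 across codes) more closely than between the GK arrays (rho = 0.67). The rule holds these codes near background on the GK arrays alone. For the 57 codes detected everywhere, rho was 0.97 between the Wistar arrays and 0.92 between the GK arrays. Codes on one array share its RNA and its labelling, and these values describe the 4 arrays alone. Across the 47 codes, mean Wistar and mean GK signal had a rho of 0.19. Before scaling, 44 of the 47 codes were brighter on Wistar replicate 2, by a median of 0.59.

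M77 differed most between the Wistar arrays, with a normalized log2 signal of 11.29 on replicate 1 and 12.16 on replicate 2. M108 was next, at 10.47 and 11.28. Both were brighter on replicate 2 by about as much as each other, 0.87 and 0.80. At the other end, M214 read 9.83 and 9.82, and M94 read 10.07 and 10.08. The rise of M77 on replicate 2 did not come with a higher score. Its middle spot scored 11.3 on replicate 1 and 6.57 on replicate 2.

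For a code not well above background in GK rats, the measured difference is not a fold change, so each fall is given as a lower bound. The bound sets the mean Wistar log2 signal against the mean over the GK arrays of the higher of the code's own signal and the dimmest detected M code on that array. Without scaling, all 47 bounds were above 1-fold, from at least 1.5-fold for M213 to at least 12.2-fold for M92, with a median of 2.73-fold. A bound of at least 2-fold was reached by 37 of the 47 codes. Over all 406 M codes the same calculation, which gives the plain difference for codes above the limit, reached 2-fold for 17.2%. Of the 57 codes detected everywhere, 23 were at least 2-fold lower in GK rats. The rule used this contrast, and nothing is read from the gap between these shares.

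After quantile normalization, 21 of the 47 codes kept a bound above 1-fold and 7 reached 2-fold, against 3.94% of the 406 M codes at 2-fold. The other 26 had a bound at or below 1-fold, which leaves it undetermined whether they fell. The share of the 406 M codes above 1-fold was not computed under any scale. Nothing is therefore read from the counts above 1-fold, here or on the P code scale. Of the 57 codes detected everywhere, 7 were at least 2-fold lower in GK rats. Fewer codes are detected on the GK arrays, so the dimmest detected code there stands high in the ranking, at a normalized log2 signal of 10.04 and 9.51. The mean Wistar signal of 29 of the 47 codes was below the first of these limits and that of 20 below the second. A code at such a level would lie under the dimmest code that the GK array detected. Without GK replicate 2, 4 of the 47 codes reached 2-fold, a count for which no share over all M codes was computed. M213, M288 and M40 had the smallest bounds, and M213 and M288 were also the dimmest of the 47 in Wistar rats.

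With the 4 P codes taken as the scale, 8 of the 47 codes had a bound above 1-fold. M92 alone reached 2-fold, where 0.739% of the 406 M codes and 2 of the 57 codes detected everywhere did. On this scale 27 of the 47 codes had a higher measured mean in GK rats than in Wistar rats. The scale raised the GK values of the whole array. The median GK minus Wistar difference was 2.07 (log2) over the 406 M codes and 1.77 over the 57 codes detected everywhere. A higher GK mean is thus not particular to the 47 codes. Quantile normalization gave 2 of the 47 codes with a higher GK mean, M13 and M163, and the unscaled values gave 0. Which scale fits the RNA content of the samples was not tested. A fall of a given microRNA and the lower signal of the GK arrays therefore cannot be told apart for the 47 codes. This includes the codes whose bound stays above 1-fold under each scale tried.

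**Figure D3:**
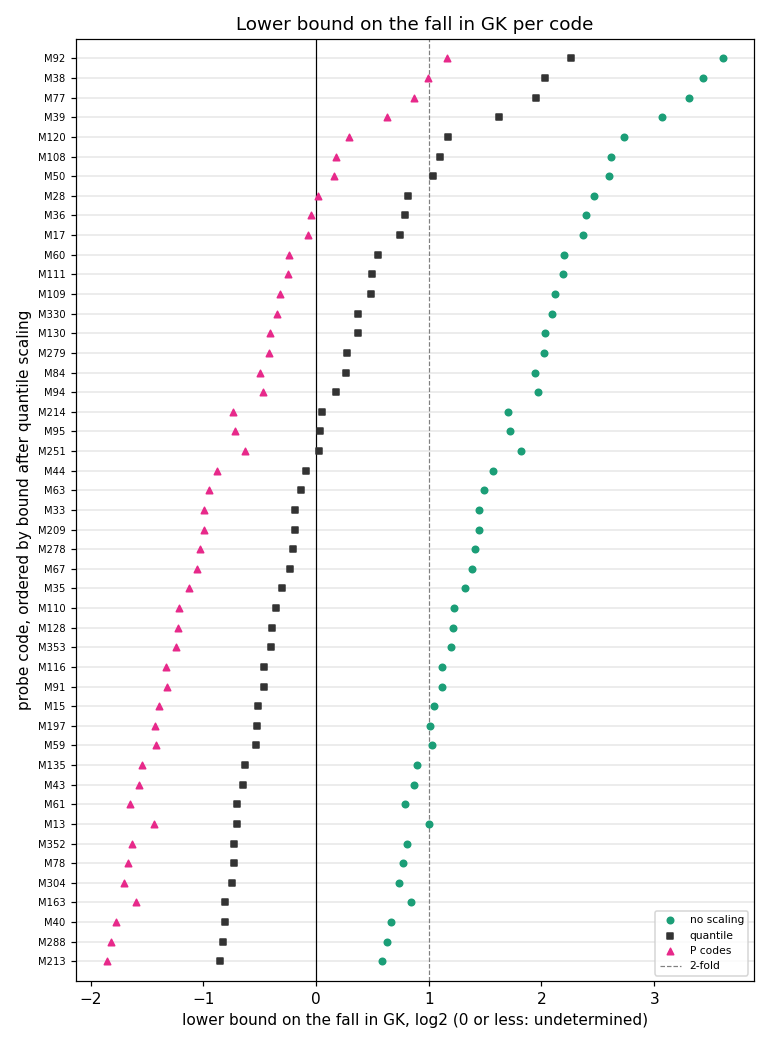
Lower bound on the fall in GK per code (x axis, log2) without scaling, after quantile normalization and with the P codes as the scale, for the 47 codes ordered by the bound after quantile normalization (y axis). Values at or under 0 leave a fall undetermined, and the dashed line is 2-fold. The numbers of codes past 2-fold are 37, 7 and 1 under the 3 scales.

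Over 7 ways of scaling, 8 codes kept a bound above 1-fold under each: M92, M38, M77, M39, M120, M108, M50 and M28. M120, M50 and M28 are named because they belong to this count, after their values were seen. All 8 lie in the first 55 of the 118 codes ranked by Wistar signal. They are the brightest of the 47 codes in Wistar rats. The rule used the strain contrast, and every scaling used the same arrays, so the scalings are not separate evidence. How many of all M codes, or of the codes detected everywhere, pass under all 7 was not computed. Nothing is therefore read from the count of 8. The 14 codes whose bound exceeded 1-fold without scaling and when scaled by the median over all M codes, and under no other scale, formed the weakest group.

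M92 had the largest bound after quantile normalization of the 4 arrays and under each other scaling. M77 exceeded it without Wistar replicate 1, at 2.42 against 2.33 on the log2 scale, and between GK replicate 1 and Wistar replicate 2 alone, at 2.12 against 2.05. The background-subtracted intensity of M92 was 5293 and 7281 on Wistar replicates 1 and 2, whereas its GK readings were 129 and 227. Its strains were far apart before scaling, and its 2 Wistar arrays were close after it, at 12.04 ± 0.07 (SD, n = 2) on the normalized log2 scale. After quantile normalization GK rats were at least 4.79-fold lower, and on the P code scale at least 2.24-fold. On the pixel measure, 72.7% and 82.0% of its spot pixels were bright on the Wistar arrays and 19% and 20.7% in GK rats.

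M38 was close behind, with an intensity of 4793 and 6230 on the Wistar arrays against 108 and 61.7 on the GK arrays. Its normalized Wistar signal was 11.81 ± 0.02 (SD, n = 2), and its measured GK signal of 8.17 ± 1.02 (SD, n = 2) lay under the detection limit of each GK array. The GK arrays were further apart for M38 than the Wistar arrays. Its bound was at least 4.09-fold by quantile normalization and at least 1.99-fold by the P codes.

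M77 read 3363 and 7765 on the Wistar arrays, and its middle spot scored 0.86 and 0.57 in GK rats. Its Wistar arrays were the furthest apart of these codes, while both GK readings stayed under the score of 2. After quantile normalization the Wistar mean was 11.73 ± 0.62 (SD, n = 2) and the bound at least 3.86-fold, with at least 1.82-fold on the P code scale. M39 read 3968 and 4603 on the Wistar arrays and 132 and 213 on the GK arrays. Its strains did not overlap, and its bound was at least 3.08-fold after quantile normalization and at least 1.54-fold with the P codes.

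M120, M108 and M50 made up the rest of the codes past 2-fold after quantile normalization, at 2.25-fold, 2.14-fold and 2.05-fold. M120 had the brightest reading of these 3 on GK replicate 2, with 165 and 395 in GK rats and 2882 and 3968 in Wistar rats. M108 had the dimmest, with 50.3 and 30.3 against 2116 and 4477. M50 read 174 and 218 against 2520 and 3712. Apart from M120 on GK replicate 2, whose normalized signal of 9.63 exceeded the limit of 9.51, none of these readings was above the limit. The order of the bounds thus follows mainly the Wistar signal and does not rank the falls. M28, at 38.7 and 50 in GK rats against 2498 and 3059 in Wistar rats, had a bound of at least 1.76-fold after quantile normalization and 1.01-fold with the P codes.

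At the dim end, M213 read 588 and 854 on the Wistar arrays and 29.3 and 82.7 on the GK arrays. Its reading on GK replicate 1 was below that of M28, but its Wistar signal left little room above the detection limit. Its bound was at least 1.5-fold without scaling, and after quantile normalization there was none. M288 read 576 and 927 on the Wistar arrays against 61.7 and 270 on the GK arrays. M40 read 620 and 915 against 60.3 and 75. For both, the strains were apart before scaling, and after quantile normalization the values of M288 overlapped.

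Without scaling both GK values were below both Wistar values for all 47 codes, where this held for 38.9% of the 406 M codes. After quantile normalization it held for 38 of the 47 codes, against 26.6% of all M codes, and with the P codes for 14 of 47, against 4.68%. Of the 57 codes detected everywhere it held for 31, 15 and 3 under the same 3 scales. The rule used these differences, so nothing is read from the counts. The 9 codes that overlapped after quantile normalization were M13, M43, M44, M61, M163, M197, M251, M288 and M352. M13 went furthest, with normalized signals of 9.77 and 10.01 in GK rats and 9.24 and 9.41 in Wistar rats.

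Some of the 47 codes lay close to the score of 2 that chose them. M43 and M288 were just inside on the Wistar side, with a middle-spot score of 2.02 and 2.03 on Wistar replicate 1. M330 and M13 were just inside on the GK side, with 1.98 on GK replicate 1 and 1.95 on GK replicate 2. M314 and M395 were left out by a Wistar score of 1.93 each, on Wistar replicates 2 and 1. M133 and M32 were left out by a GK score of 2.02 on replicate 2 and of 2.14 on replicate 1. In all, 13 of the 47 codes had a lower Wistar score under 3, and 3 had a higher GK score over 1.5. The lower Wistar score exceeded 5 for 17 codes. The number of codes rested most on Wistar replicate 1, without which the same rule would take 87. Wistar replicate 2 was the only array to detect 40 codes, and Wistar replicate 1 the only one to detect 4.

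The 47 codes were unevenly placed in the numbering of the array, as were all codes with signal. Codes M1 to M100 held 25 of them, M101 to M200 held 11, M201 to M300 held 7 and M301 to M400 held 4. Taken as a share of the codes detected on both Wistar arrays in each range, this was 46.3%, 37.9%, 50% and 21.1%. The next code number also belonged to the 47 for 15 of them. Of the 4 printed blocks, block 1 held 15, block 2 held 14, and blocks 3 and 4 held 9 each. As a share of the codes detected on both Wistar arrays in each block, this was 57.7%, 40%, 33.3% and 30%. The 3 spots of a code lie side by side, so they share any local unevenness of the slide. The files do not say how the codes were numbered, and whether place on the slide bears on the values was not tested.

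**Figure D4:**
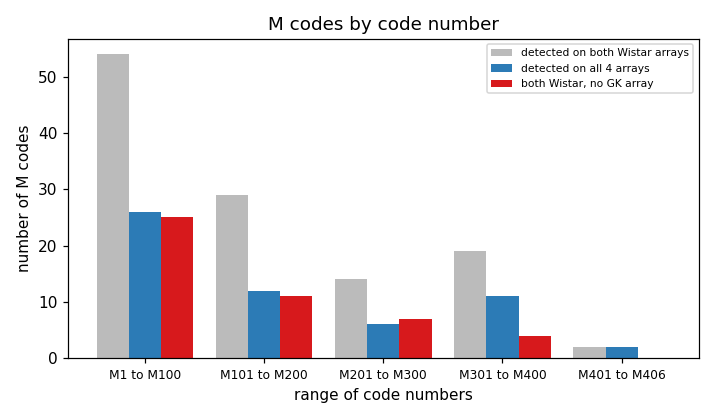
Number of M codes (y axis) by range of code number (x axis): detected on both Wistar arrays, on all 4 arrays, and on the Wistar pair alone. The last group falls from 25 codes in M1 to M100 to 4 in M301 to M400, and the last range, M401 to M406, holds 0.

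The arrays also differed in where the spot grid began, at a horizontal position of 1260 and 1250 for GK replicate 1 and Wistar replicate 2, and of 1900 and 1910 for GK replicate 2 and Wistar replicate 1, in the scanner's units. Each position held 1 array per strain. Within the low position 5 of the 47 codes had a bound of 2-fold or more after quantile normalization, and within the high position 8 did. The share over all M codes was not computed within a position, so nothing is read from these counts.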

How the data were processed

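Data came from 4 scanner tables of 1296 spots and 432 codes (406 M, 14 N, 8 P and 4 B), 3 spots each. The authors deposited linear intensity values per spot in the Cy5 channel, with no scaling between arrays. Per the file headers, they also deposited a signal-to-noise score, which matched its formula to within 0.0005, and the percent of saturated pixels and of pixels over background plus 2 SD. The deposited value table equals the foreground median intensity (0 cells differed). Of the scanner and its software, nothing is stated in the labels or headers. No spot was flagged.

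Foreground means were corrected with normexp (offset 50) on background means over all spots, put on a log2 scale and quantile normalized over M codes, and spots were averaged (limma 3.58.1, R 4.3.3). Deposited values are not log2; that step was added here. The offset understates changes of dim codes. The bound calculation was checked on made-up arrays, where detection was a cut-off on signal and no scaling was applied. The check does not cover the score rule or the choice of scaling. No test was run, because the detection rule uses the strain contrast. The members were chosen with earlier results of these data known. Named codes are those with the largest or smallest bound, Wistar signal or Wistar difference, and those nearest the score of 2. Plans to name microRNAs by family were not carried out, since codes carry no names. The number of arrays limits the precision.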

Additional observations from a re-analysis of the deposited data

How the results depend on the processing

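No paired analysis was possible because the results come from no test. The bounds depended on the scaling between arrays more than on any other choice tried. The 7 codes with a bound of at least 2-fold became 37 unscaled, 22 when scaled by the median over all M codes, 14 with the median of codes detected on all 4 arrays (added after seeing the data), 4 with cyclic loess and 1 with the P codes. The median bound of -0.19 (log2) became 1.45, 0.88, 0.39 and -0.99 under the first 3 and the last of these, and -0.054 with the 75th percentile. Foreground medians gave 12 codes. Another limit for undetected codes, the 5th percentile of detected codes, gave 4 codes and a median of -0.56, and the median of undetected codes plus 2 SD gave a median of 0.16. A score of 1 gave 66 codes, 12 of them at 2-fold, a score of 3 gave 40 and 4, all 3 spots gave 47 and 4, and 1 spot gave 53 and 12; these sets shared 32, 33, 42 and 41 codes with the 47. Leaving out 1 array gave 51 to 87 codes by the rule, since fewer arrays need to agree. The most came without Wistar replicate 1, because 40 codes were detected on Wistar replicate 2 alone. With the 47 codes kept, leaving out 1 array gave 4 to 10 codes at 2-fold, the fewest without GK replicate 2. The median bound was then -0.44 to 0.19, the highest without GK replicate 1. Within the low and the high grid position, added after seeing the data, the median was -0.50 and 0.16. Non-overlapping codes fell from 38 to 28 with cyclic loess and to 14 with the P codes. They rose to 43 with the median of codes detected on all 4 arrays, 46 with the median over all M codes and 47 unscaled. Shares over all M codes were computed only for the quantile, unscaled and P code scales, so counts at other settings describe the chosen codes alone. The median Wistar signal was 10.45 unscaled and 9.22 with the P codes, and the median difference between Wistar arrays was 0.59 unscaled. M92 ranged from 1.17 to 3.61 (log2) over 19 alternatives, M38 from 0.99 to 3.43, M77 from 0.86 to 3.31 and M39 from 0.63 to 3.07. The bounds of M92, M38, M77, M39 and M108, each past 2-fold after quantile normalization, changed sign under 0 of these alternatives. M120 and M50, also past 2-fold, were not followed over all 19. The bounds of M13, M40, M43, M94, M213, M214, M288 and M330 took both signs over these alternatives. M213 ranged from -1.85 to 0.59 and M330 from -0.35 to 2.09. The cause of these shifts was not tested beyond each setting's construction. Signal over background limits the GK values, none of which was above the detection rule.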
